A study of Mus musculus with 9 samples.

Results

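Translation initiation and elongation factors are the proteins that load ribosomes onto mRNA and then move them along it. The genes described here are those whose name in the array files starts with Eif or Eef followed by a digit. They came to 65 gene names of 37074 on the arrays, covered by 135 probes, and the probe with the highest mean over the 9 arrays stood for its gene. The group was chosen by name and not by any measured value. In mouse liver these factors carry the steady output of plasma proteins and metabolic enzymes. Initiation begins when eIF2, bound to GTP and the initiator tRNA, joins the small ribosomal subunit together with eIF1, eIF1A, eIF3 and eIF5, and eIF4F brings the capped mRNA. In elongation eEF1A delivers aminoacyl-tRNAs, the eEF1B subunits recharge it with GTP, and eEF2 moves the ribosome forward by a codon. Inputs from nutrients reach the machinery through the eIF4E-binding proteins, which hold back eIF4E, and through kinases that phosphorylate eIF2.

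Liver RNA was measured in 3 groups of male C57BL/6N mice, with 3 one-colour arrays in each and an age of 12 months in the labels, which the study's text gives as the time since vector injection. AAV-V mice had received a hepatocyte-targeted adeno-associated virus with no insert and ate a regular diet. AAV-GP73 mice had received the same vector carrying mouse GP73, the Golgi membrane protein encoded by Golm1, and also ate a regular diet. AAV-V HFD mice had received the empty vector and ate a high-fat diet (HFD). All mice therefore carried the vector, which was given through the tail vein to adult animals, in repeated doses per the methods, and drives expression in hepatocytes. Whether an array was made from 1 mouse or from a pool is not stated, so the p-values measure the spread between arrays. The question was how livers with GP73 or with a HFD differed from AAV-V livers on a regular diet in the level of each factor, and whether the former groups differed from each other.

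The arrays of AAV-V were dimmer than the rest, and this touches every comparison with AAV-V. Of the spots on an array, between 10.17% and 10.75% were well above background in AAV-V, between 16.02% and 18.38% in AAV-GP73 and between 13.8% and 16.74% in AAV-V HFD. "Well above background" is the scanner software's own mark, and a gene with that mark is called detected here. The median signal of the detected spots was 39.7 ± 2.94 (SD, n = 3) in AAV-V, 149 ± 18.0 on the AAV-GP73 arrays and 157 ± 55.0 on those of AAV-V HFD. The added spike-in RNAs did not follow that order, with a mean log2 signal of 10.59 ± 0.28 in AAV-V, 10.45 ± 0.04 in AAV-GP73 and a mean of 10.71 ± 0.20 in AAV-V HFD. Signals were scaled on each array to the 75th percentile of those 2669 probes that were detected on every array, so a value below is a scaled log2 signal unless it is called a difference. The lowest detected signal lay at 3.77 to 3.94 on the AAV-V arrays and at 1.85 to 2.81 on the other 6 arrays, so a gene had to be brighter on AAV-V arrays to be detected. AAV-V and AAV-GP73 lay in separate columns of 1 slide and AAV-V HFD lay on another slide. Diet and slide cannot be told apart, and neither can GP73 and the slide column. Of 8 hepatocyte markers 7 were detected on all 9 arrays, whereas the single Golm1 probe was detected on none, so it could not check the GP73 labels.

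Of the 65 factors, 40 were tested, which required detection on all 3 arrays of at least 1 group. The other 25 were not tested, and 17 of them were detected on no array. Between 12 and 17 members were detected on an AAV-V array, between 40 and 45 on an AAV-GP73 array and between 39 and 41 on an AAV-V HFD array. Only 10 members were detected on all 9 arrays. These were Eef1a1, Eef1b2, Eef1d, Eef1g, Eef2, Eif1, Eif3g, Eif3h, Eif5a and Eif5a2, and they alone give a measured level in every sample. The other 30 tested members entered the test through the groups in which they were bright, so their number called higher is a description and carries no weight of its own.

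**Figure D1:**
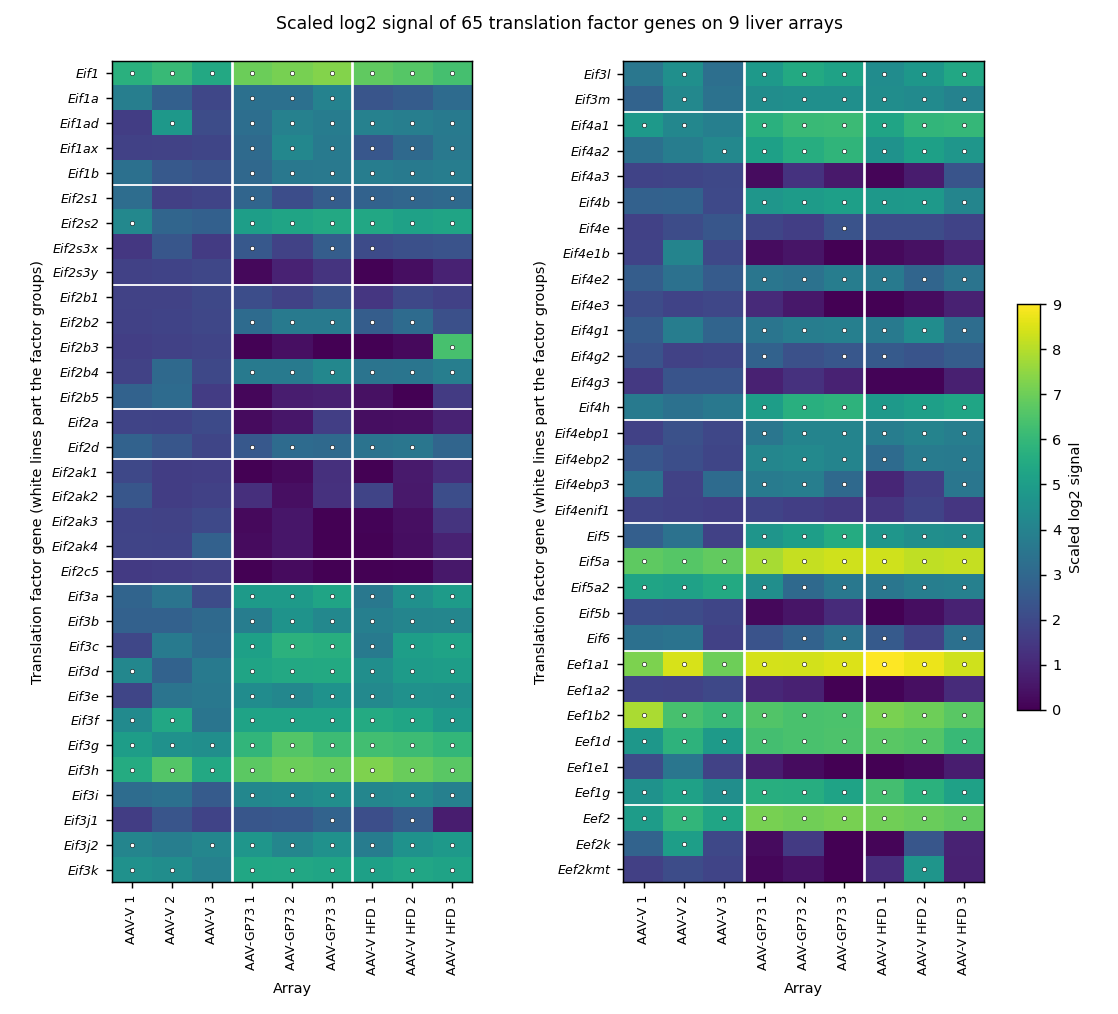
Scaled log2 signal (colour) of the 65 translation factor genes (rows, by factor group) on the 9 arrays (columns); a white dot marks a gene that was detected on that array. The dots fill the AAV-GP73 and AAV-V HFD columns for most eIF3 genes and are sparse in the AAV-V columns, where 12 to 17 genes carry one.

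Among the 10 members detected everywhere, most were higher than in AAV-V in AAV-GP73 as well as in AAV-V HFD, and 1 was lower in both. A gene was called when its fold was at least 2 and its adjusted p in limma was under 0.05, with adjustment over the 5763 genes tested. In AAV-GP73 against AAV-V, 6 of the 10 were called higher and 1 lower, where 15.9% and 32.6% of the 2429 genes detected on all 9 arrays were called higher and lower. In AAV-V HFD against AAV-V, 7 of the 10 were called higher and 1 lower, beside 11.4% and 30.1% of those genes. The median log2 difference of the 10 was 1.12 in the former and 1.18 in the latter comparison, while that of all genes detected on all 9 arrays was -0.19 and -0.36. These counts moved with the settings. For AAV-GP73 and AAV-V HFD in turn, 8 and 9 of the 10 were called higher and 0 lower with the 75th percentile of all probes, 9 and 9 higher and 0 lower with spike-in scaling, 0 and 1 higher with normexp background correction and an offset of 50, and 5 and 4 higher and 0 lower with no offset. Averaging the probes of a gene left 4 and 3 called higher, with medians of 0.48 and 0.84, and the methods' t-test left 5 and 3 after adjustment. Leaving out replicate 1 or 3 of AAV-V or replicate 1 of AAV-V HFD each cut the 7 calls of AAV-V HFD to 4, while the 6 calls of AAV-GP73 stayed between 5 and 7 without any one array.

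Over all 40 tested members, 25 were called higher and 1 lower in each comparison with AAV-V. The shares over all genes tested were 33.2% higher and 19.4% lower for AAV-GP73, and 24.8% higher and 18.2% lower for AAV-V HFD. The median log2 difference of the tested members was 1.35 beside 0.60 for all genes tested in AAV-GP73 against AAV-V, and 1.09 beside 0.37 in AAV-V HFD against AAV-V. The gap was smaller among tested genes not detected on all 9 arrays. There the medians were 1.38 for 30 members beside 0.96 for all such genes with GP73, and 1.07 beside 0.69 with the HFD. Of these members 63.3% and 60% were called higher, beside 45.9% and 34.6% of all such genes. Of the 25 members called higher, 13 were not detected on any AAV-V array in either comparison, so only a lower bound of their fold is known. Such a bound compares group means and makes no allowance for the spread between arrays. Every tested member detected in only 1 of the groups compared, called or not, was then set to its bound. Bounds below 0 on the log2 scale were set to 0. The medians were then 0.82 and 0.70. The counts rested on how the signals were scaled and corrected for background. Scaled to the 75th percentile of all probes, 38 and 37 members were called higher and 0 lower, where the shares over all genes were 64.5% higher and 6.96% lower with GP73, and 56.8% and 3.16% with the HFD. Scaled to the spike-in RNAs, 39 and 38 members were called higher, beside 76% and 65.5% of all genes. With normexp background correction and an offset of 50, only 0 and 1 members were called higher, beside 2.39% and 1.25% of all genes, and with no offset 15 and 4, beside 14.9% and 5.9%. With the offset of 50 the median difference of the members was itself below 0, at -0.36 and -0.51, beside -0.58 and -0.73 for all genes. In all of these settings the median of the members exceeded that of all genes. This is a description, as 30 of them entered the test through the groups in which they were bright. Both comparisons share the AAV-V arrays.

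**Figure D2:**
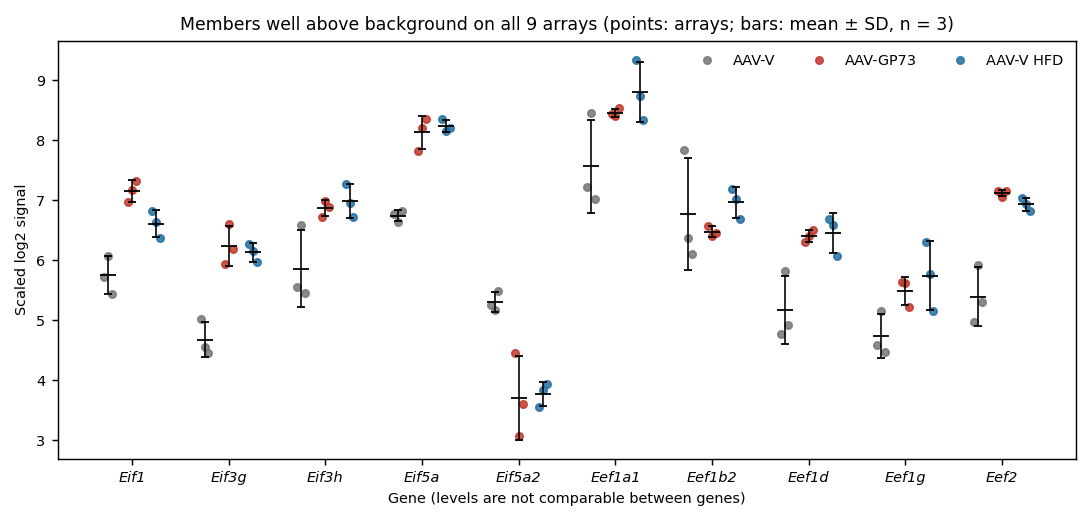
Scaled log2 signal (y axis) of the 10 members detected on all 9 arrays, with a point for each array and a bar for the mean ± SD of 3 arrays in AAV-V (grey), AAV-GP73 (red) and AAV-V HFD (blue). Eef2, Eif1, Eif3g and Eif5a lie higher in both other groups than on any AAV-V array, Eif5a2 lies lower, and Eef1b2 overlaps.

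Eef2, the GTPase that translocates the ribosome, was read by a pair of tested probes that differed in size of change. At the probe with the higher signal its signal was 4.96, 5.92 and 5.29 on the AAV-V arrays, 7.15, 7.06 and 7.15 on the AAV-GP73 arrays and 7.04, 6.94 and 6.81 on the AAV-V HFD arrays. Every array of the latter groups lay above every AAV-V array. Eef2 was 3.31-fold higher in AAV-GP73 than in AAV-V (log2 1.73 ± 0.29 SE, limma adjusted p = 0.000413) and 2.9-fold higher in AAV-V HFD (log2 1.54 ± 0.29, adjusted p = 0.00147). The other probe gave log2 differences of 0.33 and 0.37 and was not called (limma adjusted p = 0.385 and 0.341 over all probes). The former probe is spotted 10 times on each array, and the SD of its spots within an array had a median of 0.10. Eef2k, the kinase that inactivates eEF2, was detected on 1 AAV-V array only, at 5.06, and Eef2kmt, which methylates eEF2, on 1 AAV-V HFD array only, at 4.70.

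The eEF1 genes did not move as 1 block. Eef1d, a nucleotide exchange subunit of eEF1B, stood at 4.76, 5.81 and 4.92 in AAV-V, 6.30, 6.41 and 6.49 in AAV-GP73 and 6.69, 6.58 and 6.07 in AAV-V HFD. All AAV-GP73 and AAV-V HFD arrays lay above the AAV-V arrays, and the log2 differences were 1.24 ± 0.32 (SE, limma adjusted p = 0.00599) and 1.28 ± 0.32 (adjusted p = 0.00655). At another Eef1d probe, also detected on all 9 arrays, all of them lay below the AAV-V arrays (-0.62 and -0.54, not called). The direction given for Eef1d therefore holds for the former probe only. Eef1a1, the tRNA-delivering GTPase, had 7.22, 8.45 and 7.01 in AAV-V, 8.43, 8.40 and 8.53 in AAV-GP73 and 9.34, 8.73 and 8.33 in AAV-V HFD. AAV-V replicate 2 overlapped with both other groups. Eef1a1 differed by log2 0.89 ± 0.39 in AAV-GP73 (limma adjusted p = 0.0645, not called) and was called in AAV-V HFD at 1.24 ± 0.39 (adjusted p = 0.019). Without AAV-V replicate 2 the AAV-GP73 difference was 1.33 and was called (adjusted p = 0.0056), so that array decided the call. The AAV-V HFD call was lost when replicate 1 (1.07) or 3 (0.96) of AAV-V or replicate 1 of AAV-V HFD (0.97) was left out. Another Eef1a1 probe, also detected on all 9 arrays, differed by -0.87 and -0.67 and was not called.

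Eef1g, a structural subunit of eEF1B, moved less. Its signal was 4.59, 5.15 and 4.46 in AAV-V, 5.63, 5.61 and 5.22 in AAV-GP73 and 6.30, 5.76 and 5.15 in AAV-V HFD. AAV-V HFD replicate 3 lay level with AAV-V replicate 2. Its log2 difference of 0.75 ± 0.34 in AAV-GP73 was not called (limma adjusted p = 0.0683) and that of 1.00 ± 0.34 in AAV-V HFD was (adjusted p = 0.0252), although the call was lost without replicate 1 or 3 of AAV-V or replicate 1 or 2 of AAV-V HFD. Eef1b2, the catalytic exchange subunit, stood at 7.84, 6.37 and 6.10 in AAV-V, 6.57, 6.40 and 6.45 in AAV-GP73 and 7.19, 7.02 and 6.68 in AAV-V HFD. The groups overlapped through AAV-V replicate 1, and neither log2 difference (-0.29 ± 0.40 and 0.19 ± 0.40) was called. Another Eef1b2 probe gave 0.76 and 1.27, and was called higher in AAV-V HFD. Eef1a2, the isoform of muscle and neurons, and Eef1e1, a scaffold protein of tRNA synthetases, were detected on no array. Whether the Eef1a1 probe also binds transcripts of its near-identical copies was not tested, and the same holds for Eif3j2 and for Eif1a and Eif1ax below.

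Of the 5 eIF1 and eIF1A genes all were tested and 2 were called higher in each comparison with AAV-V, Eif1 and Eif1ax in AAV-GP73 and Eif1ax and Eif1b in AAV-V HFD. The shares called higher over all genes tested were 33.2% and 24.8%. Eif1b was detected on no AAV-V array, and no bound of its fold above 1 could be given. Eif1 encodes the factor that guards start codon selection. It stood at 5.72, 6.07 and 5.44 in AAV-V, 6.97, 7.16 and 7.32 in AAV-GP73 and 6.81, 6.63 and 6.36 in AAV-V HFD. All AAV-GP73 arrays lay above all AAV-V HFD arrays and these above all AAV-V arrays. These are values of 1 probe, and another Eif1 probe, also detected on all 9 arrays, went the other way (-0.91 and -1.49), so the direction given for Eif1 holds for the former probe only. Its log2 difference from AAV-V was 1.41 ± 0.27 in AAV-GP73 (limma adjusted p = 0.00105), while 0.86 ± 0.27 in AAV-V HFD stayed under the fold of 2 (adjusted p = 0.0204) and passed it without AAV-V replicate 2 (1.02). The difference between AAV-GP73 and AAV-V HFD, 0.55, was not called (adjusted p = 0.356).

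Eif1ax, the X-linked eIF1A gene, was not detected in AAV-V. It read 3.13, 4.17 and 3.66 in AAV-GP73 and 2.46, 3.06 and 3.64 in AAV-V HFD, while its AAV-V readings of 1.72, 1.77 and 1.89 were all below detection. The fitted log2 differences were 1.86 ± 0.35 and 1.26 ± 0.35 (limma adjusted p = 0.000937 and 0.0113), but the means of both groups lay below the AAV-V detection level, so no fold can be given. Without AAV-V HFD replicate 3 the difference in AAV-V HFD was 0.97 and not called. Eif1a, its autosomal copy, was detected in AAV-GP73 alone, at 3.31, 3.34 and 3.97, beside undetected readings of 3.83, 2.76 and 1.90 in AAV-V and 2.36, 2.62 and 3.15 in AAV-V HFD. Neither of its differences was called, and without AAV-V replicate 1 the one in AAV-GP73 was 1.21 and was called.

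The eIF2 complex itself was seen mainly through its beta subunit. Eif2s2, which encodes it, read 4.19, 2.93 and 2.77 in AAV-V, with only the first of these detected, then 5.04, 5.25 and 5.45 in AAV-GP73 and 5.40, 5.15 and 5.26 in AAV-V HFD. Every array of the latter groups lay above AAV-V, by log2 1.95 ± 0.36 (limma adjusted p = 0.000781) and 1.97 ± 0.36 (adjusted p = 0.00129). Eif2s1, the alpha subunit whose phosphorylation slows initiation, read 3.22, 1.69 and 1.84 in AAV-V, 2.94, 2.11 and 2.65 in AAV-GP73 and 2.84, 2.99 and 3.09 in AAV-V HFD, and it was not called. Eif2s1 was detected on no AAV-V array, and no bound of its fold above 1 could be given. Without AAV-V replicate 1 its fitted difference in AAV-V HFD was 1.20 and was called. The gamma subunit gene Eif2s3x was detected on 3 arrays, none of them AAV-V, and its Y-linked copy Eif2s3y on none.

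The exchange factor eIF2B recharges eIF2 with GTP. Of its 5 genes 2 were tested. Eif2b4 read 1.77, 3.07 and 1.94 in AAV-V, 3.67, 3.72 and 4.16 in AAV-GP73 and 3.45, 3.50 and 3.84 in AAV-V HFD, and was called higher in both (log2 1.59 ± 0.35 and 1.33 ± 0.35, limma adjusted p = 0.00232 and 0.00829). Eif2b2 read 1.73, 1.81 and 1.90 in AAV-V, 3.15, 3.71 and 3.70 in AAV-GP73 and 2.65, 3.13 and 2.21 in AAV-V HFD, and was called in AAV-GP73 alone (log2 1.71 ± 0.30, limma adjusted p = 0.000605), though also in AAV-V HFD without AAV-V HFD replicate 3 (1.08). Neither gene was detected in AAV-V, and both were too dim elsewhere to give a bound on the fold. None of the 4 eIF2 kinase genes, Eif2ak1 to Eif2ak4, was detected on any array, and neither was Eif2a. Eif2d, which can also place initiator tRNA, was tested and not called, with fitted differences of 0.54 ± 0.33 and 0.93 ± 0.33. The latter was called without AAV-V replicate 1 (1.16) or AAV-V HFD replicate 3 (1.10). Eif2d was not detected in AAV-V either, and had no bound above 1. Eif2c5 carries an older name of the Argonaute family, is no translation factor in the sense used here, and was not detected.

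The eIF3 complex, the scaffold that joins mRNA to the small subunit, was the best covered. Of its 14 genes 13 were tested. By their brightest probes none was called lower, while the calls higher numbered 10 with GP73 and 9 with the HFD. Another probe of Eif3k was called lower in both comparisons, as given below. Of these 13 genes 11 were not detected on all 9 arrays, and among all such tested genes 45.9% and 34.6% were called higher. Their log2 differences ran from 0.44 to 2.60 in AAV-GP73, with a median of 1.32, and from 0.39 to 1.73 in AAV-V HFD, with a median of 1.12. Only Eif3g and Eif3h were detected on all 9 arrays. Eif3g, an RNA-binding subunit, read 5.01, 4.55 and 4.46 in AAV-V, 5.93, 6.60 and 6.19 in AAV-GP73 and 6.26, 6.16 and 5.96 in AAV-V HFD. The groups did not overlap with AAV-V, and Eif3g was 2.96-fold higher in AAV-GP73 (log2 1.56 ± 0.28 SE, limma adjusted p = 0.000676) and 2.74-fold higher in AAV-V HFD (log2 1.45 ± 0.28, adjusted p = 0.00176).

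Eif3h, a subunit of the outer part of the complex, was nearer to the threshold. It read 5.54, 6.59 and 5.44 in AAV-V, 6.73, 6.98 and 6.89 in AAV-GP73 and 7.27, 6.95 and 6.71 in AAV-V HFD. AAV-V replicate 2 lay just below the lowest arrays of the other groups. The log2 differences were 1.01 ± 0.33 (limma adjusted p = 0.0206) and 1.12 ± 0.33 (adjusted p = 0.0147), and these calls were lost without AAV-V replicate 1 or 3, without AAV-GP73 replicate 2 or 3 for the former and without AAV-V HFD replicate 1 for the latter.

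Eif3c, a core subunit, had the largest fitted difference of the complex, though its AAV-V readings were not above background and its rank is therefore not established. It was below detection in AAV-V at 1.91, 3.68 and 3.15, and read 5.12, 5.77 and 5.63 in AAV-GP73 and 3.70, 5.03 and 5.21 in AAV-V HFD. Against the lowest signal that the AAV-V arrays could detect, the mean of Eif3c was at least 3.14-fold higher in AAV-GP73 and at least 1.73-fold higher in AAV-V HFD. The latter bound does not hold for each array: AAV-V HFD replicate 1, at 3.70, lay below the AAV-V detection level of 3.77 to 3.94. Eif3a, the subunit that holds the complex together, was likewise undetected in AAV-V and was at least 2.26-fold and at least 1.42-fold higher. Eif3j2, a loosely bound subunit, had the smallest fitted differences, with 4.09, 3.86 and 4.12 in AAV-V, 4.73, 4.12 and 4.55 in AAV-GP73 and 3.78, 4.59 and 4.88 in AAV-V HFD. These ranges overlapped and Eif3j2 was not called. Eif3d, which can itself bind the cap of some mRNAs, was seen on 1 AAV-V array and was called in both comparisons (1.82 ± 0.35 and 1.26 ± 0.35, limma adjusted p = 0.000949 and 0.0104), and Eif3l (1.37 and 1.06) was also called in both. Eif3f (0.82 and 0.81) and Eif3m (0.96 and 0.75) were not called in either.

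Genes of the cap-binding eIF4F complex and its helpers came next, with 6 of 12 tested and 4 called higher in each comparison with AAV-V. None of the 12 was detected on all 9 arrays, and the shares called higher among all tested genes of that kind were the 45.9% and 34.6% given above. Eif4a1, the main RNA helicase of eIF4F, read 4.88, 4.17 and 3.88 in AAV-V (the first 2 detected), 5.72, 6.10 and 6.13 in AAV-GP73 and 5.25, 5.93 and 6.0 in AAV-V HFD. It was 3.19-fold higher in AAV-GP73 (log2 1.68 ± 0.33 SE, limma adjusted p = 0.00116) and 2.67-fold higher in AAV-V HFD (log2 1.42 ± 0.33, adjusted p = 0.00453). Its paralogue Eif4a2 differed by 1.76 ± 0.32 and 1.02 ± 0.32 (limma adjusted p = 0.00073 and 0.0192), and the latter call was lost without AAV-V replicate 1 (0.78) or AAV-V HFD replicate 2 (0.87).

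Eif4b and Eif4h both stimulate the eIF4A helicase, and neither was detected in AAV-V. Eif4b read 2.78, 2.84 and 1.99 in AAV-V, 4.72, 4.94 and 5.08 in AAV-GP73 and 4.81, 4.85 and 4.11 in AAV-V HFD, at least 2.08-fold and at least 1.66-fold higher. Eif4h was at least 3.11-fold higher in AAV-GP73 and at least 2.32-fold higher in AAV-V HFD, and it was the only factor whose bound passed 2 in AAV-V HFD. In AAV-GP73 the bound passed 2 for Eif3a, Eif3c, Eif4b, Eif4h and Eif5. Eif4g1, the scaffold of eIF4F, read 2.60, 3.82 and 2.90 in AAV-V, 3.51, 3.81 and 3.88 in AAV-GP73 and 3.68, 4.36 and 3.22 in AAV-V HFD, and was not called, except in AAV-V HFD without AAV-V replicate 2 (1.00). That call rests on AAV-V readings below detection. The cap-binding protein gene Eif4e was detected on 1 array, in AAV-GP73, and its relative Eif4e2 was tested and not called (0.71 and 0.51).

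The eIF4E-binding proteins act against eIF4F when they are not phosphorylated. Eif4ebp1 read 1.73, 2.22 and 1.91 in AAV-V, 3.54, 4.06 and 4.05 in AAV-GP73 and 3.83, 4.04 and 3.85 in AAV-V HFD. It was below detection on every AAV-V array and above it on every other array, and its fitted log2 differences were 1.93 ± 0.27 and 1.95 ± 0.27 (limma adjusted p = 0.000175 and 0.000379). Its signal in the other groups lay so near the AAV-V detection level that the fold was bounded only at 1.02 and 1.03. Eif4ebp2 read 2.45, 2.16 and 1.88 in AAV-V, 4.15, 4.25 and 4.06 in AAV-GP73 and 3.16, 3.76 and 3.66 in AAV-V HFD. Those groups did not overlap with each other or with AAV-V, and the fitted differences from AAV-V were 1.99 ± 0.27 and 1.37 ± 0.27 (adjusted p = 0.000172 and 0.00213). Eif4ebp2 was detected on no AAV-V array, so its fold was bounded only at 1.23 in AAV-GP73. In AAV-V HFD no bound above 1 could be given. Eif4ebp3 read 3.34, 1.79 and 3.16 in AAV-V, 3.73, 3.84 and 3.08 in AAV-GP73 and 0.97, 1.66 and 3.54 in AAV-V HFD, and it was not called. Eif4ebp3 was detected on no AAV-V array and, in AAV-V HFD, on replicate 3 alone. Without that replicate it was called lower in AAV-V HFD than in AAV-V (-1.45). That call compares readings below detection in both groups, so it gives no measured fold.

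The eIF5 family held the clearest contrast. Eif5a encodes the hypusine-carrying factor that eases peptide bond formation, and Eif5a2 its second isoform. Eif5a read 6.77, 6.64 and 6.82 in AAV-V, 7.82, 8.21 and 8.36 in AAV-GP73 and 8.35, 8.15 and 8.21 in AAV-V HFD. All arrays of the latter groups lay above AAV-V, and Eif5a was 2.62-fold higher in AAV-GP73 (log2 1.39 ± 0.25 SE, limma adjusted p = 0.000754) and 2.82-fold higher in AAV-V HFD (log2 1.50 ± 0.25, adjusted p = 0.000916). Eif5a2 read 5.26, 5.16 and 5.48 in AAV-V, 4.45, 3.07 and 3.60 in AAV-GP73 and 3.55, 3.84 and 3.93 in AAV-V HFD. Every array of AAV-GP73 and AAV-V HFD lay below every AAV-V array, and the log2 differences were -1.59 ± 0.34 (adjusted p = 0.00193) and -1.53 ± 0.34 (adjusted p = 0.0036). Other probes of Eif1, in AAV-V HFD, and of Eif3k, in both comparisons, were called lower, as given below. By the brightest probe of each gene, Eif5a2 was the only factor called lower in either comparison. That call depended on the scaling: with the 75th percentile of all probes the differences were -0.60 and -0.57, with spike-in scaling 0.090 and -0.19, and none of these was called. Eif5, the GTPase-activating partner of eIF2, was undetected in AAV-V at 2.74, 3.39 and 1.74, and with 4.69, 5.03 and 5.55 in AAV-GP73 and 4.72, 4.44 and 4.38 in AAV-V HFD it was at least 2.35-fold and at least 1.58-fold higher. Eif5b, the GTPase of subunit joining, was detected on no array. Eif6, which keeps the large subunit apart, was not tested by its brightest probe, and another of its probes gave log2 differences of 1.43 and 1.14 (adjusted p = 0.00885 and 0.0309 in limma over all probes).

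**Figure D3:**
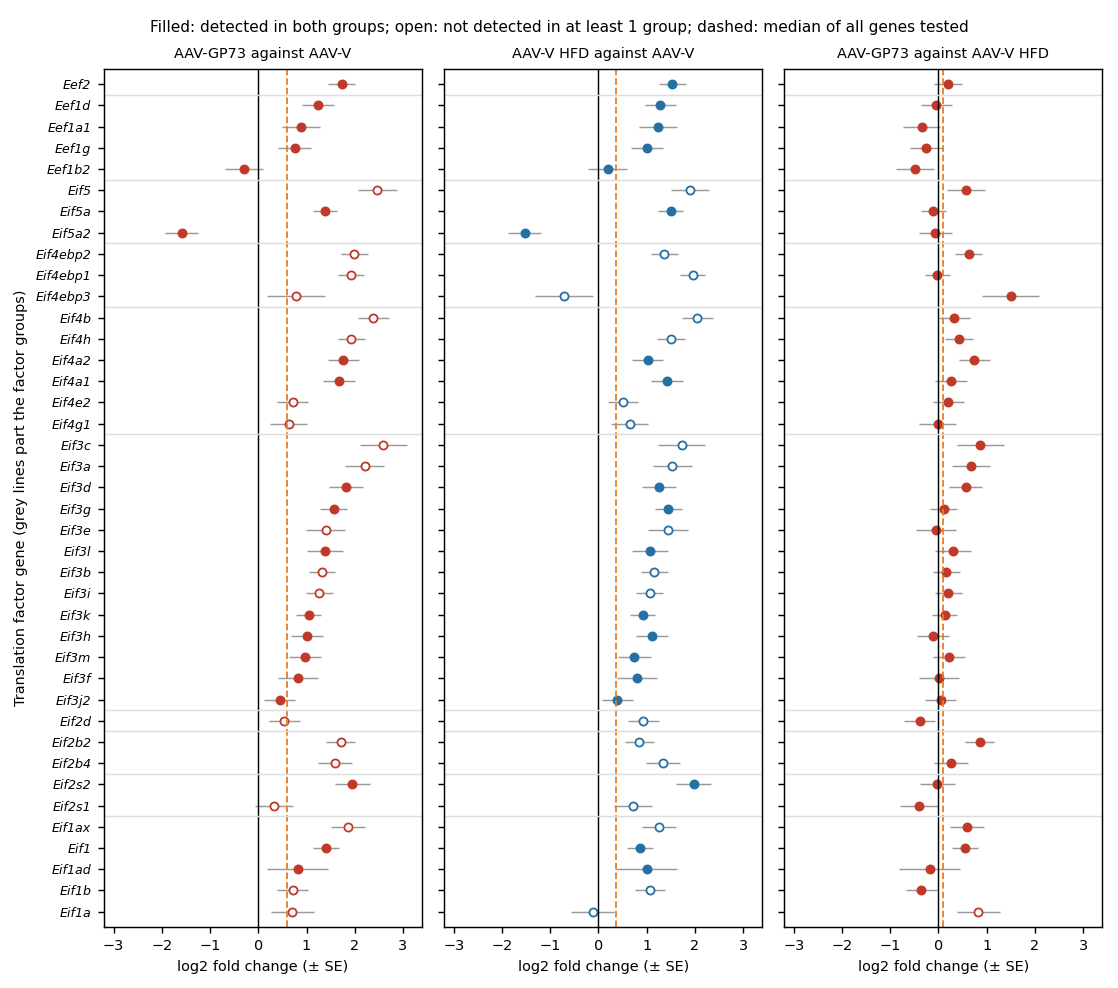
log2 fold change ± SE (x axis) of the 40 tested members (rows, by factor group) in the 3 comparisons; filled points are members detected on at least 1 array of both groups, open points are not, and the dashed line is the median of all genes tested. In the first and second panel 35 and 36 of the 40 points lie right of the dashed lines at 0.60 and 0.37, with Eif5a2 far to the left, and the points of the third panel scatter around 0. Of the 40 members 30 entered the test through the groups in which they were bright, so these counts are a description.

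AAV-GP73 and AAV-V HFD were then compared with each other, without AAV-V arrays in the contrast. Of the 40 tested members 0 were called by limma, beside 1.96% of all genes called higher in AAV-GP73 and 0.555% called lower, and 4 had an unadjusted p under 0.05, as had 916 of the 5763 genes tested, a larger share. Among the 10 members detected on all 9 arrays 0 were called, beside 1.03% and 0.494% of the genes detected there. Without AAV-V HFD replicate 3, 1 member was called higher, Eif4ebp3 (2.24, adjusted p = 0.0415). In AAV-V HFD Eif4ebp3 was detected on replicate 3 alone, so that call rests on readings below detection and gives no measured fold. Its difference over all arrays, given below, rests partly on the same readings. The methods' t-test called 0 as well, with or without adjustment. The 4 were Eif2b2 (log2 0.86, 95% interval 0.20 to 1.52), Eif4a2 (0.74, 0.04 to 1.44), Eif4ebp2 (0.62, 0.02 to 1.22) and Eif4ebp3 (1.50, 0.20 to 2.80), all higher in AAV-GP73 and all with a limma adjusted p of 0.176 or more. For 19 of the 40 members the 95% interval stayed within a 2-fold difference in either direction, and for the other 21 it reached a 2-fold difference or more. Among the former were Eef2 (-0.43 to 0.82), Eif3g (-0.50 to 0.73), Eif5a (-0.66 to 0.45) and Eif5a2 (-0.81 to 0.68).

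Signals from a second probe of the same gene did not always follow the first. Beginnings of such probes are shown because the direction of change turned on which was read, each as the first 30 of 60 bases from the probe's 5′ end, with the listed position in its transcript and the mm9 coordinates of the whole probe, which span an intron where they cover more than the probe's 60 bases.
Eif1, position 282, chr11:100182085-100182262: ctgtccaagggatcgctgatgattacaata
Eif1, position 561, chr11:100182749-100182808: caagtttaaaaacctcacagcttgtacaat
Eef1d, position 1713, chr15:75726764-75726823: caaggacattgacctgttcggcagtgacga
Eef1d, position 2092, chr15:75725929-75725988: atctgaatgtccgagagagtgtggtttcat
Eef1b2, position 718, chr1:63225413-63225472: aggaagcagagaagctacgagaagaacgcc
Eef1b2, position 1025, chr1:63226153-63226212: gtccatggatgtggctgcttttaacaagat
Eif3k, position 717, chr7:29757555-29757614: ttcatctgcagccaggaagagagcattaag
Eif3k, position 1538 of another transcript, chr7:29758121-29758180: gtcagtgctcttattcgctgatctccccag

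The Eif1 probe at position 561 gave the values above. The probe at 282 read 7.25, 6.70 and 7.35 in AAV-V, 6.03, 6.01 and 6.51 in AAV-GP73 and 5.99, 5.11 and 5.72 in AAV-V HFD, so each array of AAV-GP73 and AAV-V HFD was lower than AAV-V. Its log2 differences were -0.91 and -1.49, and the one in AAV-V HFD was called lower (limma adjusted p = 0.00286, over all probes). For Eef1d the probe at 1713 differed by -0.62 and -0.54, against 1.24 and 1.28 at 2092, and neither of the former was called. For Eef1b2 the probe at 1025 differed by 0.76 and 1.27, against -0.29 and 0.19 at 718, and was called higher in AAV-V HFD (adjusted p = 0.00873). In these 3 genes the probe nearer the 3′ end rose more or fell less, by log2 2.32, 1.86 and 1.05 in AAV-GP73. Eef2 had the same order, with 0.33 at position 2203 and 1.73 at 2904.

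The other pairs of probes gave like values or another order. For AAV-GP73 the log2 differences of 2 probes from AAV-V were 1.03 and 1.01 for Eif3h, 1.59 and 1.39 for Eif5a and 0.75 and 0.56 for Eef1g. The Eif3k probe at 717 gave a difference of 1.05 ± 0.26 in AAV-GP73 and was called, whereas a probe for another Eif3k transcript gave -2.10 and -1.67 and was called lower in both comparisons. Across the arrays, 118 transcripts had a pair of probes at least 100 bases apart by their listed positions and detected on all 9 arrays. The probe nearer the 3′ end had the larger difference in 68.6% of them in AAV-GP73 against AAV-V (median difference 0.19), in 73.7% in AAV-V HFD against AAV-V (0.25) and in 43.2% in AAV-GP73 against AAV-V HFD (-0.03). The part of transcript length, splice forms or RNA quality in these differences was not tested. Eef1a1 also had a second probe, with differences of -0.87 and -0.67, but its listed position and its mm9 coordinates do not give the same order, so the order of its probes is not given.

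**Figure D4:**
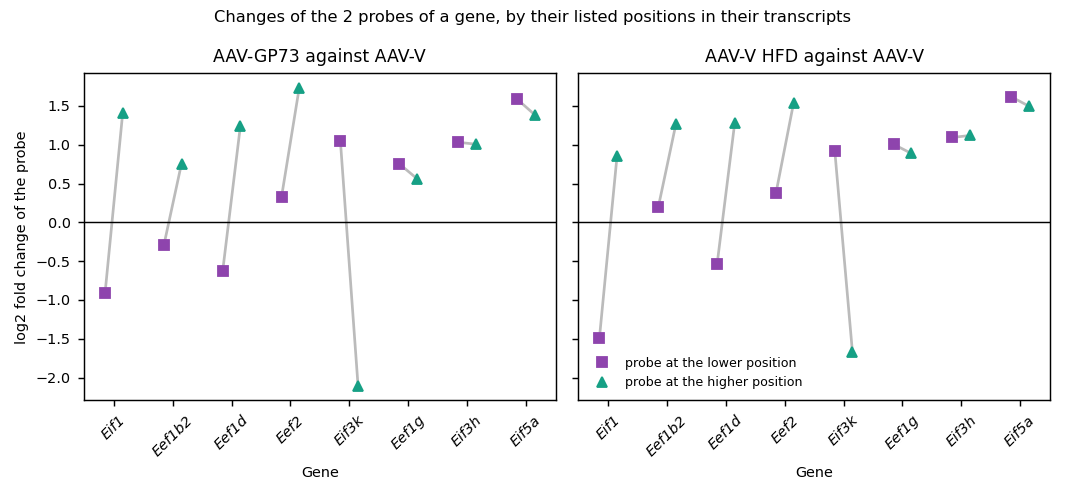
log2 fold change (y axis) of a lower-position probe (purple square) and a higher-position probe (green triangle) for 8 members with 2 tested probes, for each of the other groups against AAV-V. The pairs of Eif1, Eef1d and Eef1b2 fall on both sides of 0 or nearly so, that of Eif3k is inverted, and those of Eef1g, Eif3h and Eif5a stay together.

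Promoters of the members were read from RefSeq (GRCm38.p6), as the 250 bases before and the 50 bases from each annotated start. They were given for 51 of the 65 genes. The heptamer CCGGAAG, the core of the sites bound by ETS factors such as GABPA, was searched on both strands. Counted in any promoter listed for a gene, it occurred in 15 of the 31 tested members with a promoter (48.4%), in 19.1% of the 3429 tested genes with one and in 9.93% of all 27025 genes. Windows from 80 bases before to 20 after the start are shown for members detected on all 9 arrays with and without it and for Eif3c and Eif3d, with CCGGAAG or its reverse complement in capitals.
Eef1b2, chr1:63176751-63176850, plus strand: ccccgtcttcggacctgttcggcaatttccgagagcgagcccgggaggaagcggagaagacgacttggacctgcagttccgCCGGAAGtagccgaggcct
Eif5a2, chr3:28781197-28781296, plus strand: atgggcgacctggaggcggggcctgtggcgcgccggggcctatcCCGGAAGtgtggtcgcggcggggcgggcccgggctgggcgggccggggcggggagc
Eif3g, chr9:20898571-20898670, minus strand: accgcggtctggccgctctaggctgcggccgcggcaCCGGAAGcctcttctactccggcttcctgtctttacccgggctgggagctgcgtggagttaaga
Eif3c, chr7:126566347-126566446, minus strand: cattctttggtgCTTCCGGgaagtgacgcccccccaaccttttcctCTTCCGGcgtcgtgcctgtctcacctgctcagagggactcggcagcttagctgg
Eif3d, chr15:77970805-77970904, minus strand: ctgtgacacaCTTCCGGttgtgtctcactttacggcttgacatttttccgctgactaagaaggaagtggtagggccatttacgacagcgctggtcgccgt
Eef2, chr10:81176551-81176650, plus strand: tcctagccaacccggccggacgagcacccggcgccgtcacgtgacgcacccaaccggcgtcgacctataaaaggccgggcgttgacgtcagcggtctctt

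Members with the heptamer were found among those called higher and those called lower, and whether it bears on the change was not tested. Eif5a2, called lower under the main scaling but not under all others, carried the heptamer in 2 copies in the full window, 1 of them shown. Eef2, among those called higher, carried none. The median log2 difference from AAV-V was 1.39 for the 15 tested members with it and 1.54 for the 16 without in AAV-GP73, and 1.07 and 1.20 in AAV-V HFD. Over all genes tested the medians with and without it were 0.87 and 0.73, and 0.67 and 0.40. A run of at least 5 pyrimidines that begins with C, of the kind that opens mRNAs of many ribosomal and elongation factor genes, lay within 10 bases of the annotated start in 8 of the 31 tested members (25.8%) and in 32% of the tested genes. Annotated starts are approximate, and a match is not a site in use.

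Neighbouring steps of translation were counted in the same fit. Of 22 genes for aminoacyl-tRNA synthetases and their scaffold, 10 were tested, and none was called lower, while the calls higher numbered 6 with GP73 and 7 with the HFD. The shares over all genes tested were 33.2% and 24.8% higher, and over tested genes not detected on all 9 arrays 45.9% and 34.6%. None of the 10 was detected in AAV-V. Aars, which charges alanine tRNA, Gars, for glycine, Tars, for threonine, and Sars, for serine, had fitted log2 differences of 2.18, 2.14, 1.91 and 1.75 in AAV-GP73 and 1.86, 1.82, 1.18 and 1.50 in AAV-V HFD. Measured against the AAV-V detection level they were at least 1.13-fold, 2.12-fold, 1.05-fold and 1.1-fold higher with GP73, and with the HFD only Gars had a bound above 1, at least 1.7-fold. Of the genes that respond to phosphorylated eIF2, 2 of 10 were tested. Both were called higher in both comparisons, beside 33.2% and 24.8% of all genes tested. Atf4, the transcription factor translated under that condition, differed by 1.91 ± 0.54 and 2.00 ± 0.54 (limma adjusted p = 0.00895 and 0.00905), and Atf5 by 3.06 ± 0.26 and 2.41 ± 0.26 (adjusted p = 2.0e-05 and 0.000188). The other 8, which include Ddit3, Trib3 and Chac1, were not tested.

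Of 12 genes for poly(A) binding and initiation helpers, 10 were tested, with 4 calls higher and 1 lower with GP73, and 2 higher and 1 lower with the HFD. These shares lie near those over all genes. The RNA helicase Ddx3x and the poly(A)-binding partner Paip1 were called higher in both without being detected in AAV-V, Ddx3x at least 2.31-fold and at least 1.75-fold and Paip1 with no bound above 1, and Mknk1, a kinase of eIF4E, was called lower in both (-1.55 ± 0.26 and -1.13 ± 0.26). Among 8 enzymes of hypusine and diphthamide, the modified residues of eIF5A and eEF2, 4 were tested. Dhps, the first enzyme of hypusine synthesis, was called lower (-1.25 ± 0.27 and -1.11 ± 0.27, limma adjusted p = 0.00205 and 0.00587) and Dph3, of diphthamide synthesis, was called higher with no bound above 1. Of 9 mitochondrial translation factors 4 were tested, with Tufm and Mrrf called higher and Gfm1 lower in both comparisons. Tufm was at least 1.28-fold higher in each and Mrrf at least 1.09-fold in AAV-GP73, and neither was detected in AAV-V. Release and recycling factors had 1 call in each comparison among 4 tested of 6, Gspt1, higher. The mTORC1 and S6 kinase list had 1 and 2 calls higher among 4 tested of 13, Deptor, an inhibitor of mTOR, in both and Rps6ka1, a kinase of the RSK family, in AAV-V HFD. Gspt1, Deptor and Rps6ka1 were not detected in AAV-V and had no bound above 1. Beside all counts of this paragraph, the shares of all genes tested were 33.2% higher and 19.4% lower in AAV-GP73. In AAV-V HFD they were 24.8% higher and 18.2% lower. In AAV-GP73 against AAV-V HFD 0 genes of these lists were called.

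Bulk liver RNA cannot tell more cells of a type from more RNA per cell. Of 5 erythroid markers 4 were tested and 3 were called higher in AAV-GP73 than in AAV-V. Their summed level, on the log2 scale, ran from 8.55 to 9.84 in AAV-V, from 11.7 to 14.0 in AAV-GP73 and from 9.26 to 10.1 in AAV-V HFD. Of 6 macrophage markers 2 were tested and 1 was called higher in AAV-GP73, of 5 endothelial markers 1 was tested and was called higher in AAV-GP73, and of 6 stellate markers 2 were tested, of which 1 was called lower with GP73 and 2 with the HFD. Of 4 cholangiocyte and 5 T and B cell markers 0 were tested, and 2 and 4 of them were detected on no array. All 8 hepatocyte markers were tested. With GP73, 1 of them was called higher and 1 lower, and with the HFD 0 were called higher and 1 lower. For scale, 33.2% of all genes tested were called higher with GP73 and 24.8% with the HFD. The shares called lower were 19.4% and 18.2%. The part of red cell precursors in the factor levels of AAV-GP73 was not tested.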

How the data were processed

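Total liver RNA was hybridised to 9 one-colour Agilent arrays, 3 in each group. Per the file headers, the authors scanned them with Feature Extraction 12.0.3.1 (the submitters' processing notes name 10.7), and the deposited intensity is the background-subtracted gProcessedSignal of each spot. The authors also deposited a table of log2 values, normalized between arrays, which was used as an alternative. Control spots and spots flagged as outliers (98 to 151 an array) were left out, spots of a probe were averaged, and each gene was read by its brightest probe. The log2 intensity was shifted to the 75th percentile of the 2669 probes well above background on all 9 arrays. A gene was tested if well above background on all 3 arrays of a group. limma 3.58.1 (R 4.3.3) fitted all 3 groups, with Benjamini-Hochberg adjustment over 5763 genes, and calls needed a fold of at least 2 with an adjusted p under 0.05. The scripts were tested on simulated data. Where a gene was below that mark on every array of the dimmer group, a lower bound of its fold was taken against the lowest signal detected there. The bound is a difference of group means, without an allowance for the spread between arrays. No spot was saturated, and 3 arrays a group limit the precision.

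Members, neighbouring lists and markers were chosen with earlier results of these data known. Within each factor group, values on every array were given for the member with the highest mean signal, for those with the largest and smallest difference in AAV-GP73 against AAV-V and for any called lower. Of the neighbouring lists up to 4 called genes were named. The other members were named after their values were seen. Replicate numbers did not pair the arrays. Probe coordinates are mm9 as in the files, and promoters are RefSeq, GRCm38.p6.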

Additional observations from a re-analysis of the deposited data

How the results depend on the processing

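Over the named factors, 1286 of the values under other settings kept their direction and side of the threshold, 88 lost their call, 58 gained one and 60 changed sign. The cause of a change was not tested unless given. Members called higher in AAV-GP73 against AAV-V numbered 25, and 38 with the 75th percentile of all probes, 39 with spike-in scaling, 0 with normexp and an offset of 50, 15 with normexp and no offset (chosen after seeing the data) and 6 of the 10 genes left when detection on all 9 arrays was required. Those called lower numbered 1, and 0 with each of these scalings and corrections, and 16 with no filter on dim probes. The median relative to all genes was 0.75, and 0.21 with normexp and the offset, 0.49 without it, 2.31 with no filter and 1.31 on all 9 arrays. In AAV-V HFD against AAV-V the members called higher numbered 25, and 38 with spike-in scaling, 1 and 4 with normexp with and without the offset, 7 on all 9 arrays and 10 with the methods' t-test after adjustment. Those called lower numbered 1, and 0 with all-probe scaling, spike-in scaling and normexp with no offset, and 15 with no filter. The relative median was 0.72, and 0.22 with normexp and the offset, 2.12 with no filter and 1.54 on all 9 arrays. In AAV-GP73 against AAV-V HFD it was 0.09, and 0.30 with no filter. The offset of 50 exceeds the median detected signal of the AAV-V arrays, 39.7, and so compresses low signals by construction. The median of all genes was 0.60 and 0.37 in the comparisons with AAV-V, 1.59 and 1.32 with all-probe scaling, 0.73 and 0.69 with quantile normalization, 2.28 and 1.71 with spike-in scaling, -0.58 and -0.73 with normexp and the offset, 0.39 and -0.11 without it, and 0.73 and 0.57 with the authors' values.

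Without any one array, members called in AAV-GP73 against AAV-V were 23 to 29 higher and 1 lower, with a relative median of 0.62 to 0.86. In AAV-V HFD against AAV-V the ranges were 19 to 28, 1 to 2 (the second, Eif4ebp3, without AAV-V HFD replicate 3) and 0.63 to 0.92 (the highest without AAV-V replicate 2). In AAV-GP73 against AAV-V HFD they were 0 to 1 higher, 0 lower and 0.02 to 0.13. With a replicate block 25 members were called higher and 1 lower in each comparison with AAV-V and 0 in the direct one, as without it. Correlations between arrays of the same number were -0.119 to 0.167, so the numbers are no pairing, and over all genes the block changed 1432 and 1047 calls in AAV-V HFD against AAV-V to 1442 and 1045, and 113 and 32 in the direct comparison to 75 and 17.

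Signs changed as follows. In AAV-GP73 against AAV-V, Eef1b2 was 0.70 with all-probe scaling, 1.39 with spike-in scaling, 0.23 as the mean of its probes and 0.24 without AAV-V replicate 1. Eif5a2 was 0.090 with spike-in scaling and Eif3k -0.53 as the mean of its probes. In AAV-V HFD against AAV-V, Eif1a was 0.83 with all-probe scaling, 1.21 with spike-in scaling, 0.56 with quantile normalization, 0.67 with the authors' values, and, without 1 array, -0.59 to 0.38, with values above 0 without AAV-V replicate 1 (0.38) or AAV-V HFD replicate 1 (0.06). Eif4ebp3 was 0.24, 0.62, 0.0029 and 0.035 under the first 4 of these. Eef1b2 was -0.17 with the authors' values, -0.01 and -0.14 without AAV-V replicates 2 and 3, Eif1 -0.32 and Eif3k -0.37 as the mean of probes, and Eif2s1 -0.22 with normexp and no offset. With normexp and the offset of 50, 18 differences in AAV-GP73 turned negative: Eef1g -0.26, Eif1ax -0.55, Eif1a -0.65, Eif2s1 -0.78, Eif2s2 -0.16, Eif2b2 -0.58, Eif2b4 -0.57, Eif2d -0.71, Eif3a -0.17, Eif3j2 -0.50, Eif3k -0.23, Eif4b -0.33, Eif4g1 -0.62, Eif4h -0.063, Eif4ebp1 -0.54, Eif4ebp2 -0.46, Eif4ebp3 -0.63 and Eif5 -0.12. In AAV-V HFD so did Eef1b2 -0.040, Eef1g -0.10, Eif1ax -0.81, Eif2s1 -0.86, Eif2s2 -0.20, Eif2b2 -0.84, Eif2b4 -0.75, Eif2d -0.74, Eif3c -0.44, Eif3a -0.56, Eif3j2 -0.60, Eif3k -0.33, Eif4a1 -0.13, Eif4a2 -0.42, Eif4b -0.50, Eif4g1 -0.73, Eif4h -0.35, Eif4ebp1 -0.63, Eif4ebp2 -0.73 and Eif5 -0.47.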

Other observations

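Several factors were detected on a single array. Eif2b3, the gamma subunit of eIF2B, read 6.37 on AAV-V HFD replicate 3 and between -0.24 and 1.85 on the other 8 arrays. Eef2kmt, which methylates eEF2, read 4.70 on AAV-V HFD replicate 2. Eef2k, the kinase of eEF2, read 5.06 on AAV-V replicate 2. These genes were not tested.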
